A study of Mus musculus with 45 samples.

Results

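Liver mRNA was measured for 8 genes of retinoid storage and metabolism in 45 mice. The genes were chosen by name from this pathway, with earlier results of these data known. All 8 were found among the 39179 genes counted and were among the 17464 genes tested, those with more than 4 reads in any mouse. The animals were female C57BL/6 mice, 5 in each of 9 groups, which received sesame oil vehicle by gavage or TCDD at 1 of 8 doses every 4 days for 28 days. The doses were 0.01 and 0.03, then 0.1 and 0.3, then 1 and 3, and at the top 10 and 30 µg/kg. The aryl hydrocarbon receptor, a transcription factor switched on by its ligands, is the target of the dioxin TCDD (2,3,7,8-tetrachlorodibenzo-p-dioxin). Every mouse, vehicle included, was given this schedule. The labels describe the mice as ovariectomized and the gavage as daily, whereas the study's methods mention no ovariectomy and place the first gavage on postnatal day 28. Each library came from the liver of 1 mouse, so the spread between the 5 libraries of a group is the spread between animals.

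The liver holds most of the body's vitamin A. Retinol from the diet is esterified in hepatic stellate cells by Lrat (lecithin retinol acyltransferase), and hepatocytes secrete it again bound to Rbp4 (retinol-binding protein 4). Retinol dehydrogenases such as Rdh16 oxidize retinol to retinal, Dhrs3 reduces retinal back to retinol, Aldh1a1 and Aldh1a2 oxidize retinal to retinoic acid, and Cyp26a1 and Cyp26b1 break retinoic acid down. Retinoic acid acts through nuclear receptors that bind direct repeats in DNA, and Cyp26a1, Lrat and Dhrs3 are classic retinoic acid-inducible genes.

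The bases in front of 5 of the genes are shown because the levels of 4 of them were linked from mouse to mouse and the other was the gene with the clearest dose response. They are RefSeq promoter windows of GRCm38.p6, written 5′ to 3′ in the direction of the gene, and stop before the start of both the RefSeq transcript and the annotated gene. Capitals mark a DR5 retinoic acid response element or a dioxin response element core, GCGTG on either strand, and no capitals mean that neither motif, nor a DR2 retinoic acid response element, is in the window.
Cyp26a1 (chr19:37697558-37697797, plus strand): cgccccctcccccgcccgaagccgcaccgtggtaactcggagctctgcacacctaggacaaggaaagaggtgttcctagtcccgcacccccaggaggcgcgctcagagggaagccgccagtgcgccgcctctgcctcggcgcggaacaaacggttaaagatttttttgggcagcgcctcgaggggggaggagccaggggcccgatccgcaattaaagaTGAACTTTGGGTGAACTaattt
Cyp26b1 (chr6:84593909-84594060, minus strand): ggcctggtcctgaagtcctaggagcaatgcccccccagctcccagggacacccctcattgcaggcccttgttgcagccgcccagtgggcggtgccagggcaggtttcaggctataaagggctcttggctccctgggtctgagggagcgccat
Lrat (chr3:82903975-82904224, minus strand): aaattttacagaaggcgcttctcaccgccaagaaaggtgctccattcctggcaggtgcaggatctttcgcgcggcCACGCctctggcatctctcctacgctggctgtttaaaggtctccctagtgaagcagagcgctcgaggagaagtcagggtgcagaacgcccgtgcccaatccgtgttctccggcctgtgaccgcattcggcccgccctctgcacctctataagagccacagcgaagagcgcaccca
Dhrs3 (chr4:144892577-144892826, plus strand): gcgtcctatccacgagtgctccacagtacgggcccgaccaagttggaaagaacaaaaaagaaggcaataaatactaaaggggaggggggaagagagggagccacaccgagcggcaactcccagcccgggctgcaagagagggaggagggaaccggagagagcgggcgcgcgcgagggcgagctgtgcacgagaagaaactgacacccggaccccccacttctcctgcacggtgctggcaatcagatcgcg
Aldh1a1 (chr19:20492333-20492582, plus strand): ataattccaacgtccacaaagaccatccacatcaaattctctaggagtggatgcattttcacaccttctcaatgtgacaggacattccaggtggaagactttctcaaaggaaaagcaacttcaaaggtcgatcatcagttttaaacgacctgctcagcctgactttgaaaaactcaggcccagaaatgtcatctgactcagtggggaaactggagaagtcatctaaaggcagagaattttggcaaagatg
The window of Cyp26a1 (240 bases) held a DR5 element on the minus strand, which begins 22 bases before the window's end. Among 32851 RefSeq promoter windows of that length 0.0852% held one. The window of Lrat held a dioxin response element core on the minus strand, as did 28.2% of all windows of 250 bases on either strand. Windows of Cyp26b1 (152 bases), Dhrs3 and Aldh1a1 (250 bases each) held none of the 3 motifs. In windows of 152 bases 16.7% held the dioxin core and 0.0578% a DR5 element, and in windows of 250 bases 0.0883% held a DR5 element and 0.174% a DR2 element. A letter match describes the sequence only.

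Reads on genes ranged from 11.8 M to 56.5 M per mouse, with a median of 17.2 M, and a read with several alignments was not counted. The liver label matched the markers, since the 8 hepatocyte markers summed to between 110643 and 149062 CPM (read counts scaled by the TMM-normalized library total) in the vehicle mice and the 4 exocrine pancreas markers to at most 0.924 CPM. Cyp1a1, the classic receptor target, rose from 7.50 ± 6.32 CPM (SD, n = 5) in vehicle to 7627 ± 1186 CPM at 30 µg/kg without overlap. The genes' own reads set how precisely each is known. Rbp4 had 22114 to 171923 reads per mouse, Aldh1a1 8401 to 68012, Rdh16 1702 to 10512, Dhrs3 1034 to 7498, Lrat 262 to 2593, Cyp26a1 110 to 2836 and Cyp26b1 8 to 1090. Aldh1a2 had only 0 to 14 reads, and 2 mice had none.

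Per kb of exon the vehicle livers held far more Rbp4 mRNA than any other of the 8. Its level was 2217 ± 175 CPM per kb (SD, n = 5), followed by Aldh1a1 at 279 ± 36.4. Dhrs3 at 39.2 ± 2.11 and Rdh16 at 31.3 ± 5.25 CPM per kb came next and differed by more than the larger SD. Cyp26a1 stood at 10.7 ± 4.33, Lrat at 5.79 ± 0.971 and Cyp26b1 at 1.35 ± 0.711 CPM per kb, and Aldh1a2 at 0.0746 ± 0.0456. Of the paired enzymes, Aldh1a1 was thus the retinal dehydrogenase whose mRNA was abundant, and the level of Cyp26a1 lay above that of Cyp26b1.

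**Figure D1:**
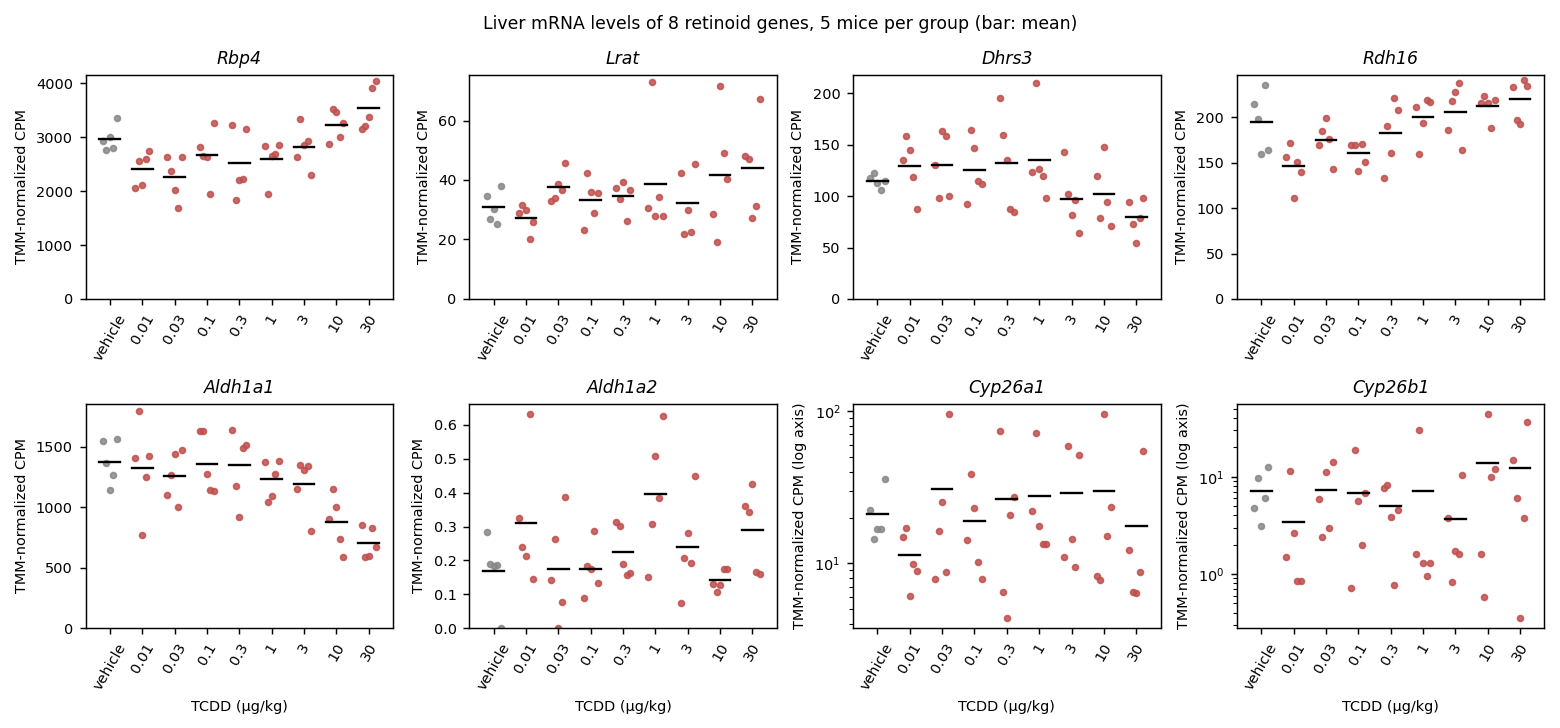
TMM-normalized CPM of the 8 genes in each mouse (points) by TCDD dose, with the mean of 5 mice as a bar; the axes of Cyp26a1 and Cyp26b1 are logarithmic. Aldh1a1 fell at 10 and 30 µg/kg, while Cyp26a1 and Cyp26b1 spread widely within every dose group.

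Aldh1a1, which makes retinoic acid from retinal, was the gene whose level fell against vehicle. Its 5 vehicle mice had 1144, 1267, 1369, 1547 and 1561 CPM. At 3 µg/kg the mice had 804, 1147, 1310.2, 1339 and 1348 CPM, and all but the lowest lay within the vehicle range. At 10 µg/kg they had 588, 734, 899, 1004 and 1153 CPM, and 4 of 5 lay below every vehicle mouse. At 30 µg/kg they had 585, 594, 673, 827 and 855 CPM, so the groups no longer overlapped. The change against vehicle was -0.65 ± 0.18 on the log2 scale (SE) at 10 µg/kg, with an adjusted p of 0.0101 (edgeR's quasi-likelihood test, Benjamini-Hochberg over all genes tested). At 30 µg/kg it was -0.96 ± 0.18, to 0.513 of the vehicle level, with an adjusted p of 7.12e-05. At the 6 lower doses the log2 change lay between -0.21 and -0.02 and did not pass the test. Aldh1a1 and its neighbour Aldh1a7 are close copies, and 3.06% of the 50-base words of Aldh1a1 transcripts also occur in Aldh1a7, so reads from those stretches align to both and were not counted. Aldh1a7 itself went from 280 ± 57.2 to 227 ± 23.6 CPM at 30 µg/kg, with a log2 change of -0.31 and an adjusted p of 0.116. Because whole liver was sequenced, fewer cells of a type and less RNA per cell cannot be told apart for any of these genes.

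No other of the 8 genes passed the test against vehicle at any dose. From 0.01 to 3 µg/kg none of 8 was called at an adjusted p under 0.05 by edgeR. The share of all tested genes called was 0% at 0.01, 0.0573% at 0.03, 0.0229% at 0.1, 0.464% at 0.3, 1.76% at 1 and 7.54% at 3 µg/kg. At those doses between 0 and 2 of the 8 had an unadjusted p under 0.05. At 10 µg/kg 1 of 8 was called, against 15.9% of all genes. At 30 µg/kg 1 of 8 was called, against 29.6% of all genes in either direction and 14.1% that fell. No member was called with a fold change of at least 2 at 30 µg/kg, where 11.4% of all genes were. The share of members called was therefore no higher than the background at the doses where calls were common. The median absolute log2 change of the 8 at 30 µg/kg was 0.52, beside 0.34 over all tested genes. It includes values with large errors, such as 0.90 ± 0.51 for Aldh1a2 and 0.73 ± 0.94 for Cyp26b1. At 0.01 µg/kg, where no gene was called, the same medians were 0.36 and 0.17. The higher median of the 8 therefore cannot be read as a larger response. Without TMM scaling the median log2 change of all genes at 30 µg/kg moved up by 0.15 and 4 of 8 were called, with Rbp4 at 0.46, Lrat at 0.72 and Rdh16 at 0.39 beside Aldh1a1. In a fit of the vehicle and 30 µg/kg mice alone 2 were called, Aldh1a1 and Dhrs3 (-0.53, adjusted p = 0.00743).

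**Figure D2:**
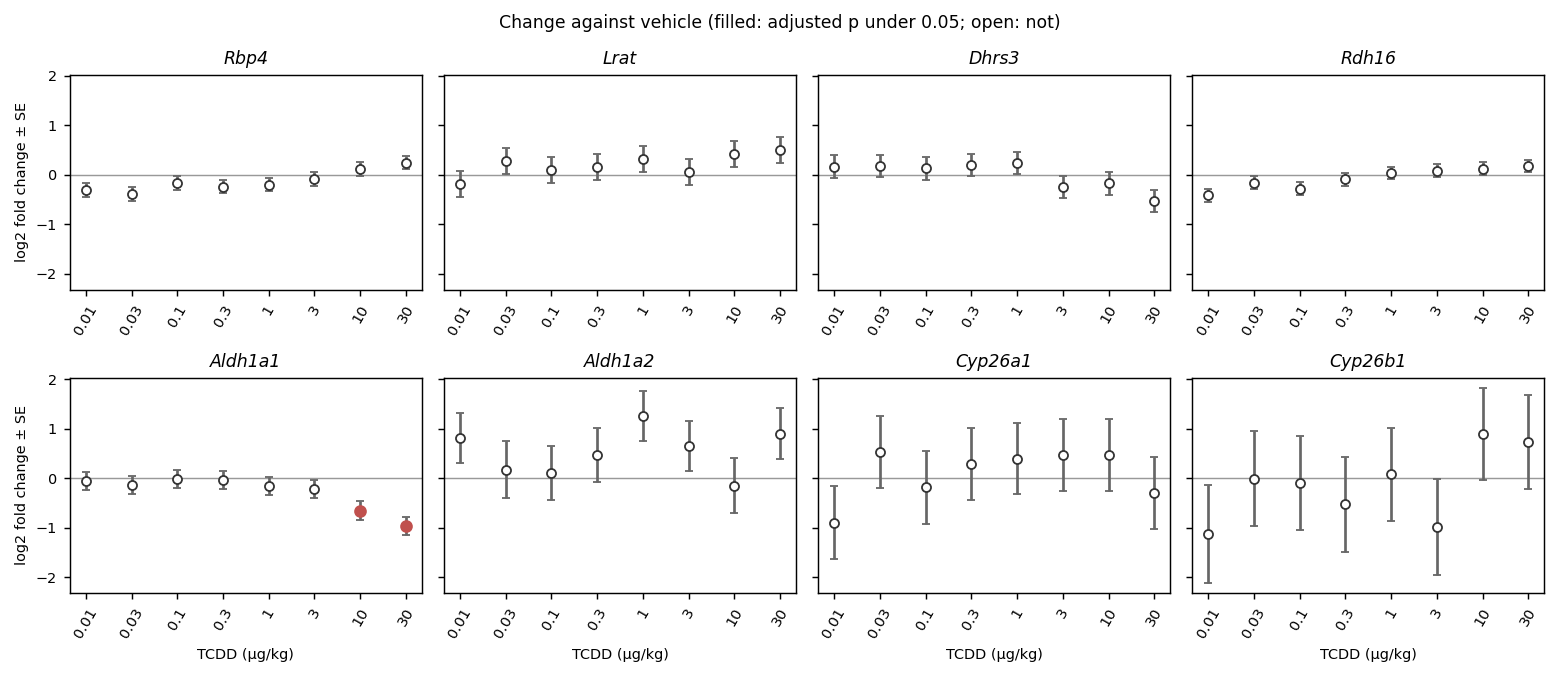
Log2 fold change against vehicle (± SE, 5 mice against 5) of each gene at each TCDD dose; filled points had an adjusted p under 0.05. The filled points are Aldh1a1 at 10 µg/kg (-0.65) and at 30 µg/kg (-0.96), and the error bars of Cyp26a1 and Cyp26b1 are the widest of the genes with more than 14 reads.

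Dhrs3, the reductase that returns retinal to retinol, had its lowest levels at the highest dose. Vehicle mice had 106, 113, 115, 118 and 123 CPM and the 30 µg/kg mice 54.1, 72.8, 78.8, 94.5 and 98 CPM. All 5 mice at 30 µg/kg lay below every vehicle mouse, yet the log2 change of -0.53 ± 0.23 had an adjusted p of 0.0759. The exact permutation test of 5 mice against 5, two-sided, gave its smallest possible p, 0.00794, without adjustment. Groups of 5 without overlap always give this p, so it adds nothing to the lack of overlap. The tight vehicle group stands beside much wider groups elsewhere, such as 84.3, 87.3, 135, 159.7 and 196 CPM at 0.3 µg/kg. Of the 8 genes, Aldh1a1 and Dhrs3 had no overlap between vehicle and 30 µg/kg, and 19.9% of all tested genes likewise had none.

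Rbp4, the plasma carrier of retinol, had values below vehicle at low doses and above it at high doses. Vehicle mice had 2771, 2808, 2940.2, 3007 and 3362 CPM. At 0.01 µg/kg they were 2066, 2124, 2568, 2598 and 2739 CPM and at 0.03 µg/kg 1682, 2026, 2376, 2628 and 2637 CPM, with every mouse under the lowest vehicle mouse. At 0.01 and at 0.03 µg/kg 1.52% and 2.79% of all tested genes did not overlap with vehicle. At 30 µg/kg the mice had 3159.8, 3219.8, 3381, 3910.4 and 4048 CPM, and 3 of 5 were above every vehicle mouse. The log2 changes were -0.30 ± 0.14, -0.39 ± 0.14 and 0.25 ± 0.14, with adjusted p of 0.471, 0.261 and 0.180.

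Rdh16, which oxidizes retinol, followed a similar course. Its vehicle mice had 159.6, 164, 199, 214 and 236 CPM, the 0.01 µg/kg mice 111, 139.8, 151, 156 and 172 CPM and the 30 µg/kg mice 193, 197, 234, 234 and 241 CPM. At 0.01 µg/kg 4 of 5 mice were below all vehicle mice, with a log2 change of -0.41 ± 0.13 and an adjusted p of 0.247. At 30 µg/kg the ranges overlapped, with 0.18 ± 0.13 and an adjusted p of 0.308. Rdh16 has more sequence in common with other genes than the rest of the 8, so its counts are uncertain. Of its 50-base transcript words 14.5% occur in other genes, Rdh9, Rdh18-ps and Rdh16f1 foremost, and it shares 381 of 6217 exon bases with Rdh18-ps on the same strand.

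Lrat, the esterifying enzyme of stellate cells, had vehicle values of 25.3, 27, 30.3, 34.5 and 37.9 CPM. At 10 µg/kg the mice had 19.2, 28.4, 40.3, 49.2 and 71.7 CPM and at 30 µg/kg 27.1, 31.1, 47, 48.1 and 67.2 CPM. In both groups 3 of 5 mice were above all vehicle mice, and at 10 µg/kg the lowest was below them all. The log2 changes were 0.43 ± 0.26 and 0.50 ± 0.26, with adjusted p of 0.292 and 0.151. Of 13 stellate cell markers 2 rose at 10 µg/kg, or 15.4% beside 15.9% of all genes, and 4 rose and none fell at 30 µg/kg, or 30.8% beside 29.6% of all genes, so both shares lay near the background. Their sum was 367 to 507 CPM in vehicle and 605 to 714 CPM at 30 µg/kg. Reln alone, a stellate cell glycoprotein, went from 54.5 to 178 CPM. Of 7 markers of activated stellate cells and fibroblasts 2 rose at 10 µg/kg and 6 at 30 µg/kg, or 85.7% of the list, with sums of 50.5 to 90.9 CPM in vehicle and 93.1 to 249 CPM at 30 µg/kg. Markers of other cell types rose too, with 4 of 8 macrophage and leukocyte markers (50% of the list, median log2 change 1.09) and 3 of 5 endothelial markers (60%, median 0.56) called higher at 30 µg/kg and none lower. Of the stellate cell and fibroblast markers Timp1 alone had a vehicle mouse at 0, and the part of these markers in the level of Lrat was not tested.

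Aldh1a2 stayed at the edge of detection. Its mean lay between 0.142 ± 0.0311 CPM at 10 µg/kg and 0.396 ± 0.182 CPM at 1 µg/kg, and no group had a mouse above 14 reads. At this depth a change could not be resolved, and the log2 change of 1.26 ± 0.50 at 1 µg/kg had an adjusted p of 0.246.

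The enzymes that break down retinoic acid had the largest spread of the set. Cyp26a1 had 14.5, 16.8, 16.8, 22.6 and 35.6 CPM in the vehicle mice, 7.8, 8.31, 15.2, 23.3 and 94.6 CPM at 10 µg/kg and 6.37, 6.53, 8.8, 12.3 and 54.6 CPM at 30 µg/kg. In the treated groups named, a single mouse stood far above the other 4. Cyp26b1 had 3.08, 4.81, 6.07, 9.67 and 12.5 CPM in vehicle, 0.963, 1.3, 1.31, 1.6 and 30.6 CPM at 1 µg/kg, 0.58, 1.62, 10, 12.1 and 44.2 CPM at 10 µg/kg and 0.354, 3.73, 6.07, 14.9 and 36.7 CPM at 30 µg/kg. Over the 45 mice Cyp26b1 varied 125-fold and Cyp26a1 21.7-fold between the lowest and the highest mouse, against 2.41-fold for Rbp4. The log2 changes at 30 µg/kg, -0.30 ± 0.73 for Cyp26a1 and 0.73 ± 0.94 for Cyp26b1, were smaller than their SE, with adjusted p of 0.802 and 0.605. With errors of that size neither a fall nor a rise of 2-fold could be told from no change.

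Over the whole dose range 5 of the 8 genes had a trend, against 41.2% of all tested genes. The slope is the log2 change per step in the rank of the 9 groups, from vehicle to 30 µg/kg. Aldh1a1 fell by 0.099 ± 0.017 per step (adjusted p = 4.99e-06) and Dhrs3 fell by 0.064 ± 0.021 (adjusted p = 0.0114). Rdh16 rose by 0.052 ± 0.011 (adjusted p = 0.000267), Rbp4 by 0.047 ± 0.013 (adjusted p = 0.00261) and Lrat by 0.061 ± 0.024 (adjusted p = 0.0400). Aldh1a2, Cyp26a1 and Cyp26b1 had slopes of 0.047 ± 0.046, 0.057 ± 0.067 and 0.12 ± 0.087 and did not pass. When the 30 µg/kg group was left out 2 genes were still called, Aldh1a1 (-0.065, adjusted p = 0.0128) and Rdh16 (0.050, adjusted p = 0.00572). The call for Lrat was lost when any 1 of 16 single mice was left out, with adjusted p up to 0.119. In the 7 comparisons of neighbouring TCDD doses none of the 8 genes was called by edgeR, against 0.249% of all gene tests, and 4 of the 56 had an unadjusted p under 0.05.

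The order of the group means repeated these courses. Aldh1a1 was highest in vehicle and lowest at 30 µg/kg, 1.95-fold apart, and Dhrs3 was highest at 1 and lowest at 30 µg/kg, 1.70-fold apart. Rbp4, Lrat and Rdh16 were each highest at 30 µg/kg and lowest at 0.03 or 0.01 µg/kg, by 1.56, 1.61 and 1.51-fold. Of the 8 neighbouring pairs in each gene's order of means, 1 pair of Aldh1a1 differed by more than the larger SD, and no pair of the other 7 genes did.

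Of the 7 genes with enough reads, Cyp26a1, Cyp26b1 and Lrat had the smallest share of their variation between dose groups. The share of the variance of log2(CPM + 0.5) that lay between dose groups was 9.52% for Cyp26a1, 12.8% for Cyp26b1 and 17.5% for Lrat. The share was 34.0% for Dhrs3, 49.3% for Rbp4, 51.5% for Rdh16 and 57.5% for Aldh1a1. Its median was 29.5% over 13609 genes with a mean of at least 10 reads. The share is not corrected for the number of groups, so differences between mice alone make it positive without any effect of dose. A small share is therefore no sign of a dose effect. Most of the variation thus lay within groups for Dhrs3, Rbp4 and the median gene as well. The SD within groups was 1.51 log2 units for Cyp26b1 and 1.15 for Cyp26a1, larger than for 99.96% and 99.8% of those genes. For Lrat it was 0.43, for Dhrs3 0.38, for Aldh1a1 0.30, for Rbp4 0.23 and for Rdh16 0.20, beside a median of 0.24.

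Within the dose groups, mice that were high in Cyp26b1 were also high in Lrat. The relation was looked for after the values were seen, on deviations of log2(CPM + 0.5) from the mean of each dose group, so dose itself does not enter it. The Pearson r between Lrat and Cyp26b1 was 0.88 and Spearman's rho 0.83 over 45 mice. Both had a permutation p of 1e-05, the smallest that 100000 permutations of mice within groups can give, and 0.00021 after Benjamini-Hochberg adjustment over the 21 pairs of the 7 genes with enough reads. The r was positive in 9 of 9 groups and was 0.85 without the 2 mice farthest from the median of Lrat. Lrat and Cyp26b1 were each other's closest gene among 13608 searched, ahead of Lrrc32 with r of 0.75 for Lrat and 0.72 for Cyp26b1. In 8 of 9 dose groups the mouse highest in Cyp26b1 was also the highest in Lrat.

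**Figure D3:**
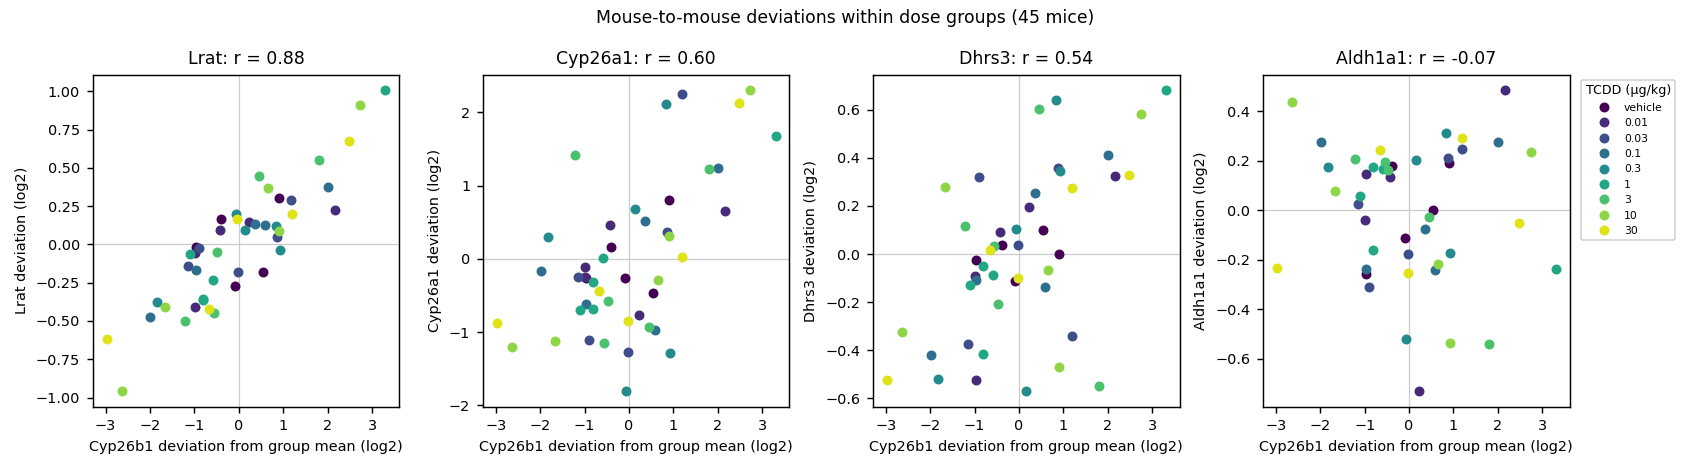
Deviation of each mouse from the mean of its dose group in log2(CPM + 0.5), Cyp26b1 on the horizontal axes and Lrat, Cyp26a1, Dhrs3 and Aldh1a1 on the vertical axes; colours give the dose. Lrat lies along a line with Cyp26b1 (r = 0.88), Cyp26a1 and Dhrs3 scatter around a rising course (0.60 and 0.54), and Aldh1a1 shows none (-0.07).

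Cyp26a1 and Dhrs3 followed the same pair more loosely. Cyp26a1 had r = 0.60 and rho = 0.46 with Cyp26b1 (permutation p = 1e-04 and 0.00476, adjusted 0.00105 and 0.0200), and r = 0.55 and rho = 0.45 with Lrat (permutation p = 0.00056 and 0.00575, adjusted 0.00392 and 0.0201). Without the 2 farthest mice r was 0.54 and 0.49. Dhrs3 had r = 0.54 and rho = 0.48 with Cyp26b1 (permutation p = 0.00084 and 0.00295, adjusted 0.00441 and 0.0194), and r = 0.48 and rho = 0.41 with Lrat (permutation p = 0.00401 and 0.0113, adjusted 0.0117 and 0.0340), and 0.48 and 0.39 without the 2 farthest mice. These were no close ranks for Dhrs3, for which Cyp26b1 came at place 734 and Lrat at place 1078 of the 13608 genes searched. Seen from the pair, Cyp26a1 came at place 11 and Dhrs3 at 22 for Cyp26b1, and at 33 and 116 for Lrat. Between Dhrs3 and Cyp26a1 themselves r was 0.22 and rho 0.12, which did not pass (permutation p = 0.234 and 0.490, adjusted 0.328 and 0.655). The promoter windows of these 4 genes, shown above, shared no motif of the 3 searched.

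The mice behind this pattern came from several doses. Replicate 2 at 1 µg/kg had 72.8 CPM of Lrat, 210 of Dhrs3, 71.6 of Cyp26a1 and 30.6 of Cyp26b1. Replicate 3 at 10 µg/kg had 71.7, 148, 94.6 and 44.2 CPM of the same 4 genes, and replicate 5 at 30 µg/kg had 67.2, 98.0, 54.6 and 36.7 CPM. Each of these 3 mice was the highest of its group in all 4 genes. Replicate 2 at 0.01 and at 0.1 µg/kg, next in the deviation of Cyp26b1, were likewise the highest of their groups in all 4. These were the 5 groups of 9 in which Dhrs3 and Cyp26b1 had the same highest mouse. The next in that order, replicate 5 at 3 µg/kg, was the highest of its group in Cyp26b1 (10.3 CPM) and Lrat (45.5 CPM) but the lowest in Dhrs3 (64.2 CPM).

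Stellate cell markers moved with the pair as well. The mean deviation of the 13 stellate cell markers had r = 0.51 and rho = 0.57 with Lrat (permutation p = 1e-05 and 3e-05, adjusted over 40 relations 0.0004 and 0.0012), and r = 0.43 and rho = 0.46 with Cyp26b1 (permutation p = 0.00452 and 0.00287, adjusted 0.0426 and 0.0451). Without the 2 farthest mice these were 0.56 and 0.47. Of the markers of activated stellate cells and fibroblasts 6 had enough reads, and their mean had r = 0.42 and rho = 0.42 with Lrat (permutation p = 0.00333 and 0.00681, adjusted 0.0426 and 0.0545), positive in 9 of 9 groups. With Cyp26b1 it had r = 0.24 and rho = 0.27, which did not pass (permutation p = 0.147 and 0.0873, adjusted 0.551 and 0.388). For 7 macrophage and leukocyte markers r with Lrat was 0.34 and rho 0.41 (permutation p = 0.014 and 0.00885, adjusted 0.0933 and 0.059). For 5 endothelial markers they were 0.29 and 0.33 (permutation p = 0.0341 and 0.0302, adjusted 0.1705 and 0.151). Neither list passed, though both went the same way. Means of the hepatocyte, pericentral, periportal, biliary and mesothelial lists had a negative r with Lrat and did not pass. With the mean of the 13 stellate cell markers regressed out of both genes, r between Lrat and Cyp26b1 was 0.85. This mean tracks the number of stellate cells only roughly, so regressing it out cannot remove cell content. The part of cell content in the relation was not tested. For Cyp26a1 the r with that mean was 0.11 and the rho 0.14 (permutation p = 0.448 and 0.377, adjusted 0.779 and 0.739). The number of reads on genes had an r of 0.02 with Lrat and -0.03 with Cyp26b1, and a rho of -0.04 and -0.08 (permutation p = 0.885, 0.847, 0.820 and 0.621, adjusted 0.995, 0.995, 0.911 and 0.776).

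The genes of retinol export and oxidation formed other pairs. Aldh1a1 had r = 0.48 and rho = 0.48 with Rbp4 (permutation p = 0.00246 and 0.00369, adjusted 0.0103 and 0.0194) and r = 0.48 and rho = 0.45 with Rdh16 (permutation p = 0.00331 and 0.00359, adjusted 0.0116 and 0.0194). Without the 2 farthest mice r was 0.46 and 0.52. Lrat and Rdh16 went opposite ways, with r = -0.39 and rho = -0.34 (permutation p = 0.00447 and 0.0261, adjusted 0.0117 and 0.0609), and -0.33 without the 2 farthest mice. In all, 8 of 21 pairs passed by Pearson's r and 7 by both measures, and these are the 8 pairs given here and above.

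Over all 45 mice, with dose included, the genes nearest to each gene with a call were as follows. For Aldh1a1 they were Sult2a7 (r = 0.87), Mgst1 (0.86) and Akr1c20 (0.84), for Rbp4 Txn2 (0.89), Ogfod2 (0.87) and Tex264 (0.84), and for Dhrs3 Hsd3b7 (0.90), Fermt2 (0.86) and Rfx4 (0.86). For Rdh16 they were Ces2e (0.83), Tkt (0.74) and Esrrg (0.72), and for Lrat Cyp26b1 (0.84), S1pr3 (0.65) and Hic1 (0.65). The r here is Pearson's on log2(CPM + 0.5) and is a description, since the mice of a dose share their treatment.

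Many other genes of vitamin A handling did change. Of 64 such genes 55 were tested, and at 30 µg/kg 8 rose and 20 fell, or 50.9% of those tested beside 29.6% of all genes. Their median log2 change was -0.25, beside 0.02 over all genes. At 10 µg/kg 5 rose and 11 fell, or 29.1% beside 15.9% of all genes. With a fold change of at least 2, 10 of them were called at 30 µg/kg, or 18.2% beside 11.4% of all genes. The list was chosen with earlier results of these data known, so shares above those of all genes may come partly from that choice. Hepatocyte markers moved partly in the same direction at 30 µg/kg. Of 8 general markers 5 fell and none rose (median log2 change -0.52), and of 5 periportal markers 3 fell and none rose (median -0.89). Of 6 pericentral markers tested 2 rose and 2 fell (median -0.25). The shares called were 62.5%, 60% and 66.7%, beside 29.6% of all genes in either direction and 14.1% that fell. The summed level of the 8 general hepatocyte markers overlapped, at 110643 to 149062 CPM in vehicle and 102957 to 153426 CPM at 30 µg/kg. The part of these markers, and of the markers of other cell types that rose, in the change of the retinoid genes was not tested.

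Among retinol dehydrogenases and retinal reductases none of 17 tested rose and 8 fell at 30 µg/kg, or 47.1% beside 29.6% of all genes. Rdh11, a retinal reductase, went from 124 ± 32.3 to 39.4 ± 7.75 CPM, a log2 change of -1.65 ± 0.25 with an adjusted p of 1.88e-06. Adh4, an alcohol dehydrogenase active on retinol, went from 101 ± 16.2 to 36.1 ± 5.64 CPM (-1.48, adjusted p = 1.88e-07). For both genes the 30 µg/kg mice lay below all vehicle mice. Rdh9 (-1.84, adjusted p = 2.92e-05) and Rdh1 (-1.96, adjusted p = 0.00542) also fell, Rdh1 from at most 28 reads in any mouse. Rdh9 and Rdh1 belong to the gene family of Rdh16, whose own value was 0.18.

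In retinal oxidation the aldehyde oxidases rose while Aldh1a1 fell. Aox3 went from 309 ± 52.6 to 675 ± 65.4 CPM (1.13 ± 0.17, adjusted p = 1.83e-06), with 1 µg/kg the lowest dose at which it was called. Aox1 went from 80.4 ± 11.5 to 144 ± 19.2 CPM (0.84 ± 0.16, adjusted p = 4.87e-05). The other 3 tested in that group, Aldh1a3, Aldh1a7 and Aldh8a1, had log2 values of -0.41, -0.31 and -0.14 and did not pass.

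Of 10 genes of ester formation and hydrolysis 1 rose and 7 fell at 30 µg/kg, or 80% beside 29.6% of all genes. Pnpla3, a lipase that acts on retinyl esters, went from 10.1 ± 7.91 to 0.549 ± 0.232 CPM (-4.17 ± 0.71, adjusted p = 1.28e-05). Ces1d, a carboxylesterase, went from 1183 ± 267 to 426 ± 107 CPM (-1.47, adjusted p = 0.00107). Lpl (lipoprotein lipase) was the gene that rose, from 17.1 ± 6.59 to 81.0 ± 17.3 CPM (2.25 ± 0.34, adjusted p = 1.45e-06).

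Of the binding proteins Rbp7 was called higher on at most 5 reads in any mouse and none in vehicle, so no fold is given, and Ttr (transthyretin, the plasma partner of Rbp4) fell by 0.34 on the log2 scale from 6170 ± 745 CPM (adjusted p = 0.00277). In the provitamin A group Bco1, which cleaves carotene to retinal, rose by 0.52 (adjusted p = 0.00327) and Bco2 fell by 0.98 (adjusted p = 0.000183). Of 6 retinoid receptors Rarg rose (0.73, adjusted p = 0.00565) and Rara fell (-0.35, adjusted p = 0.0458), or 33.3% of them, a share near that of all genes, while Rarb was at -0.25 (adjusted p = 0.493). Of 6 tested genes named for their response to retinoic acid, Tgm2 (0.83, adjusted p = 0.00106) and Nrip1 (0.52, adjusted p = 0.0239) rose and Rarres2 fell (-1.52 ± 0.14, adjusted p = 7.91e-12), from a mean of 642 to 224 CPM. That is 50% of the 6, beside 29.6% of all genes called. Of the other genes of retinoic acid breakdown Cyp2c39 fell (-0.88, adjusted p = 0.00155) and Cyp2s1 was at 0.80 (adjusted p = 0.269).

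**Figure D4:**
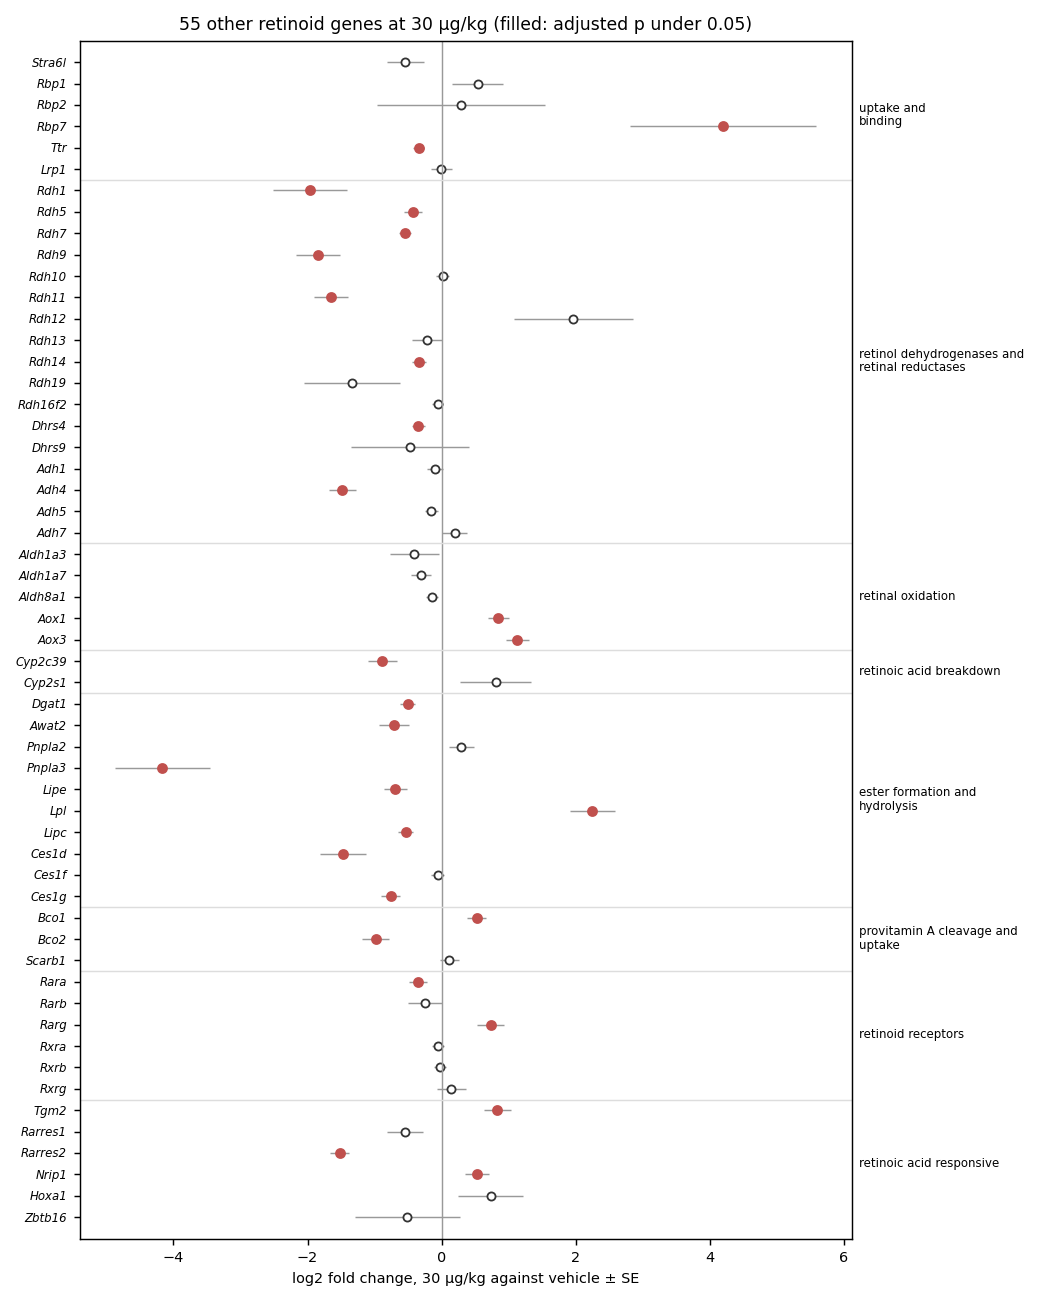
Log2 fold change at 30 µg/kg against vehicle (± SE, 5 mice against 5) of the 55 other retinoid genes tested, grouped by role; filled points had an adjusted p under 0.05. Of the 55, 8 rose and 20 fell, with Pnpla3 (-4.17) farthest to the left and, of the genes with more than 5 reads, Lpl (2.25) farthest to the right.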

How the data were processed

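RNA-seq was done on 45 livers. The authors aligned reads of 50 bases to GRCm38 (Ensembl release 74) with TopHat 1.4.1 and deposited raw counts per gene made with HTSeq 0.6.1. Reads aligned to more than 1 place were not counted, and whether counting used strand is not given in the sources used here. Rows that name no gene (45.3 to 60.9% of a file's total) were left out. The study pooled random samples for sequencing, and the labels give no pools. Gene positions, exon lengths and transcript words came from GENCODE annotation of GRCm38, which is later than the authors' release.

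Counts were tested with edgeR 4.0.16 in R 4.3.3 (TMM, 1 coefficient per group, all 45 mice, quasi-likelihood test, Benjamini-Hochberg over 17464 genes within each contrast), with called meaning an adjusted p under 0.05. The fit was tested on simulated data. CPM are TMM-normalized, and the SE is the log2 change divided by the square root of F. Permutations and plots used Python 3.11.15, numpy 2.4.6, scipy 1.17.1 and matplotlib 3.10.9, with a pseudocount of 0.5 CPM and 100000 permutations of mice within dose groups. Alternatives used DESeq2 1.42.0 and limma 3.58.1. The members and gene lists were chosen with earlier results of these data known. Named genes are the 8 members, the other retinoid genes called at 30 µg/kg with a fold change of at least 2, further genes of those groups chosen after their values were seen, and the 3 genes closest by r. A change of sign was counted as a reversal where either value was called.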

Additional observations from a re-analysis of the deposited data

Results flagged for a closer look

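In 11 of the 72 groups of 5 mice (8 genes in 9 dose groups) the highest or lowest mouse stood apart from the others by Dixon's test, with a gap to its neighbour of over 0.71 of the group's range. For independent groups with a normal spread chance flags about 1 in 20, or 3.6 of 72. The 8 genes were measured in the same mice and CPM was used without logs. The 11 therefore cannot be read as an excess over that number. At 1 µg/kg replicate 2 was apart in 5 genes. It had 72.8 CPM of Lrat against 34.4 in the next mouse, 210 CPM of Dhrs3 against 126, 71.6 CPM of Cyp26a1 against 22.1 and 30.6 CPM of Cyp26b1 against 1.60, and it was the lowest in Rbp4 with 1951 CPM against 2662. At 10 µg/kg replicate 3 was apart in Cyp26a1, with 94.6 CPM against 23.3, and in Cyp26b1, with 44.2 CPM against 12.1.

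The other 4 were single genes. Cyp26a1 had a mouse at 95.4 CPM against 25.4 in the next at 0.03 µg/kg, and a mouse at 54.6 CPM against 12.3 at 30 µg/kg. Cyp26b1 had a mouse at 11.5 CPM against 2.62 at 0.01 µg/kg. Rdh16 had a low mouse at 188 CPM against 215 at 10 µg/kg. Of the 11, 7 were in the pair of retinoic acid-degrading enzymes, and in all 7 it was the highest mouse that stood apart.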

How the results depend on the processing

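Aldh1a1 was called at 10 and 30 µg/kg and in the trend under every alternative fit, and its log2 change at 30 µg/kg lay between -0.97 and -0.75. With any 1 mouse left out it lay between -1.05 and -0.91. Of the fold changes and slopes of the 8 genes under the alternatives, 1546 kept their side of the threshold, 7 gained a call and 22 lost it, and no call changed direction. Among the 7 were Rbp4 and Dhrs3 at 30 µg/kg under the exact permutation test, whose p of 0.0238 and 0.00794 were not adjusted. The 72 mean levels moved by less than 1 SD without TMM. The count of the 8 genes called at 0.01 µg/kg was 1 with adjustment over all doses together (Rdh16, -0.41, adjusted p = 0.0381). The count at 10 µg/kg was 0 when a fold change of at least 2 was asked for. The count at 30 µg/kg was 4 without TMM, 2 with the vehicle and 30 µg/kg mice alone and 0 at a fold change of 2 or more. The count for the trend was 2 without the 30 µg/kg group, and 4 to 5 with any 1 mouse left out. The call for Lrat was lost (slope 0.045 to 0.061, adjusted p 0.0505 to 0.119) without vehicle replicate 2, 3 or 4, replicate 4 or 5 at 0.01, 2 or 4 at 0.03, 4 at 0.1, 1 or 5 at 3, 3, 4 or 5 at 10, or 1, 2 or 5 at 30 µg/kg. It was also lost with limma (adjusted p = 0.103), without the vehicle group (slope 0.066, adjusted p = 0.0603) and without the 30 µg/kg group (0.052, adjusted p = 0.189), and Dhrs3 lost its trend without TMM (-0.041, adjusted p = 0.119). The count of other retinoid genes called at 30 µg/kg was 10 at a fold change of 2 or more, and otherwise 23 to 28. The r of Lrat with Cyp26b1 was 0.83 to 0.88 under 4 alternatives chosen after seeing the data, and 0.85 to 0.89 with any 1 mouse left out. The cause of these changes was not tested. No paired analysis was possible because the replicate numbers were given in accession order. Depth limits Aldh1a2, with 0 to 14 reads, most of all.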

Other observations

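Relations of Lrat, Cyp26b1, Cyp26a1 and Dhrs3 with 48 other retinoid genes, 192 in all, were computed on deviations from the dose group means after the values were seen. Dhrs3 had 14 positive and 7 negative relations with an adjusted p under 0.05, Lrat 4 and 4, Cyp26b1 3 and 2, and Cyp26a1 1 and 1. At or beyond the weakest of these r (0.44 from 0 for Dhrs3), Dhrs3 had 43.8% of the 48 genes beside 21.03% of all 13608 genes searched, Lrat 16.7% beside 7.59%, Cyp26b1 10.4% beside 5.29% and Cyp26a1 8.33% beside 8.52%. Dhrs3 thus moved with a large share of all genes from mouse to mouse. The highest for Dhrs3 were Bco2, a carotenoid oxygenase (r = 0.79, rho = 0.82), Adh4 (r = 0.79, rho = 0.78) and Aox1 (r = 0.72, rho = 0.76), each with a permutation p of 1e-05 by both measures, the smallest possible, adjusted to 0.00064. Without the 2 farthest mice r was 0.81, 0.76 and 0.71. Over all genes, the closest to Dhrs3 within groups were Hsd3b7 (r = 0.89), Atg101 (0.88) and Arap1 (0.87).

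The retinoic acid receptor Rarb, itself a classic target of retinoic acid, moved with Lrat (r = 0.60, rho = 0.48, permutation p = 0.00056 and 0.00451, adjusted 0.00672 and 0.0333) and with Cyp26b1 (r = 0.58, rho = 0.46, permutation p = 0.00062 and 0.00538, adjusted 0.00672 and 0.0369). Without the 2 farthest mice r was 0.51 and 0.50. Tgm2, a transglutaminase that retinoic acid induces in many cells, moved with Lrat (r = 0.59, rho = 0.52, permutation p = 0.00021 and 0.00135, adjusted 0.00384 and 0.0130) and with Cyp26b1 (r = 0.49, rho = 0.44, permutation p = 0.00388 and 0.00676, adjusted 0.0287 and 0.0419), with r of 0.53 and 0.50 without the 2 farthest mice. Cyp26a1 did not pass with Rarb (r = 0.38, rho = 0.30, permutation p = 0.0295 and 0.0661, adjusted 0.111 and 0.197). Nor did it with Tgm2 (r = 0.29, rho = 0.17, permutation p = 0.101 and 0.318, adjusted 0.249 and 0.545). Dhrs3 passed with Tgm2 (r = 0.48, rho = 0.48, permutation p = 0.00286 and 0.00418, adjusted 0.0229 and 0.0321). With Rarb it did not (r = 0.25, rho = 0.17, permutation p = 0.141 and 0.304, adjusted 0.318 and 0.526). The r of Lrat was positive in 5 of 9 groups with Rarb and in 8 of 9 with Tgm2. Both genes were picked for these values, and the other 4 genes listed for their response to retinoic acid and with enough reads did not pass with Lrat, at r = -0.37 for Rarres2, -0.11 for Zbtb16, -0.02 for Rarres1 and 0.00 for Nrip1 (permutation p = 0.0314, 0.511, 0.890 and 0.997, adjusted 0.112, 0.686, 0.941 and 0.997).

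Dhrs3 went against the general and the periportal hepatocyte markers within dose groups, but not against the pericentral ones. The mean deviation of 8 hepatocyte markers had r = -0.47 and rho = -0.48 with Dhrs3 (permutation p = 0.00475 and 0.00451, adjusted over 40 relations 0.0426 and 0.0451), and -0.58 without the 2 farthest mice. For the 5 periportal markers r was -0.47 and rho -0.49 (permutation p = 0.00533 and 0.00402, adjusted 0.0426 and 0.0451), and -0.45 without the 2 farthest mice. With the 6 pericentral markers r was -0.004 and rho 0.007, which did not pass (permutation p = 0.98 and 0.969, adjusted 0.995 and 0.969).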
